A study of Homo sapiens with 8 samples.

Results

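The genes described here carry copper, and the platinum drug cisplatin, across and within cells. They are a list of 8 genes chosen by name, with earlier results of these data known, out of 35113 genes with a transcript in the deposited files. All 8 were found, and all 8 were among the 15221 genes that passed the filter on low counts and were tested. They include the copper importer SLC31A1 (CTR1), its low-affinity relative SLC31A2 (CTR2) and the copper chaperones ATOX1 and CCS. The others are the copper-exporting ATPases ATP7A and ATP7B and the anion channel subunits LRRC8A and LRRC8D. RNA was sequenced from 4 groups of squamous carcinoma cells with 2 libraries each. The groups were an HPV- resistant clone, its HPV- parental line UPCISCC89, an HPV+ resistant clone and its HPV+ parental line UDSCC2. Each resistant group was a single clone. The clones came from cells kept in rising doses of cisplatin, with a higher dose for the HPV+ line, and were then grown without the drug. All groups were cultured in the same medium. Whether replicate libraries came from different cultures is not stated, and the p-values below therefore measure only the spread between these libraries, which may be technical. A difference between a clone and its parental population cannot be told apart from differences that existed between single cells of that population.

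Copper enters cells mainly through SLC31A1, is handed on by small chaperones, and leaves through ATP7A and ATP7B, which also load copper onto enzymes in the secretory pathway. Cisplatin can bind the metal sites of several of these proteins, which is why they have been studied in platinum resistance. Volume-regulated anion channels are assembled from LRRC8A, which every such channel needs, and a partner from the same family. Channels with LRRC8D as the partner are known to let cisplatin into cells.

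The libraries held 20250246 to 27341284 read pairs. A gene is followed across libraries in CPM, its count per library after TMM scaling for depth, and levels compared between genes as TPM, which is also corrected for transcript length. The 7 squamous epithelial markers examined all reached 1 CPM in every group. Their summed level was 3650 to 4684 CPM in HPV- resistant libraries and 15790 to 16730 CPM in HPV- parental libraries, and 3601 to 4506 CPM in HPV+ resistant libraries and 2853 to 3038 CPM in HPV+ parental libraries. Single markers did not all follow the sum. KRT14 had 222 and 282 CPM in HPV- resistant libraries and 6547 and 5121 CPM in HPV- parental libraries. CDH1 went the other way, at 174 and 221 CPM in HPV- resistant libraries and 87.8 and 108 CPM in HPV- parental libraries, and EPCAM overlapped. KRT14 was also lower in the HPV+ clone, at 60.95 and 46.3 CPM beside 131 and 123 CPM in HPV+ parental libraries. Endothelial markers summed to at most 0.453 CPM in any library. The leukocyte list summed to 34.9 to 67.7 CPM in HPV- resistant libraries and 152 to 156 CPM in HPV- parental libraries, and to 10.8 to 13.6 CPM in HPV+ resistant libraries and 16.2 to 18.3 CPM in HPV+ parental libraries. Most of that sum was CD68, at 33.4 and 66.0 CPM in HPV- resistant libraries and 155 and 150 CPM in HPV- parental libraries, while the defining leukocyte marker PTPRC was at or near 0. Of the 6 fibroblast markers, COL3A1, LUM and DCN were present in the HPV+ libraries (COL3A1 at 1358 to 3079 CPM) with PDGFRB at 0. COL1A1 did not follow them, at 5.16 to 6.70 CPM in the HPV+ libraries and 3.65 to 8.36 CPM in the HPV- libraries. COL1A2 reached at most 1.27 CPM in the HPV+ libraries and 4.44 CPM in the HPV- libraries. The list summed to at most 12.3 CPM in the HPV- libraries. The part of these marker differences in the results below was not tested. In bulk RNA, fewer cells that express a gene and less RNA per cell cannot be told apart.

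**Figure D1:**
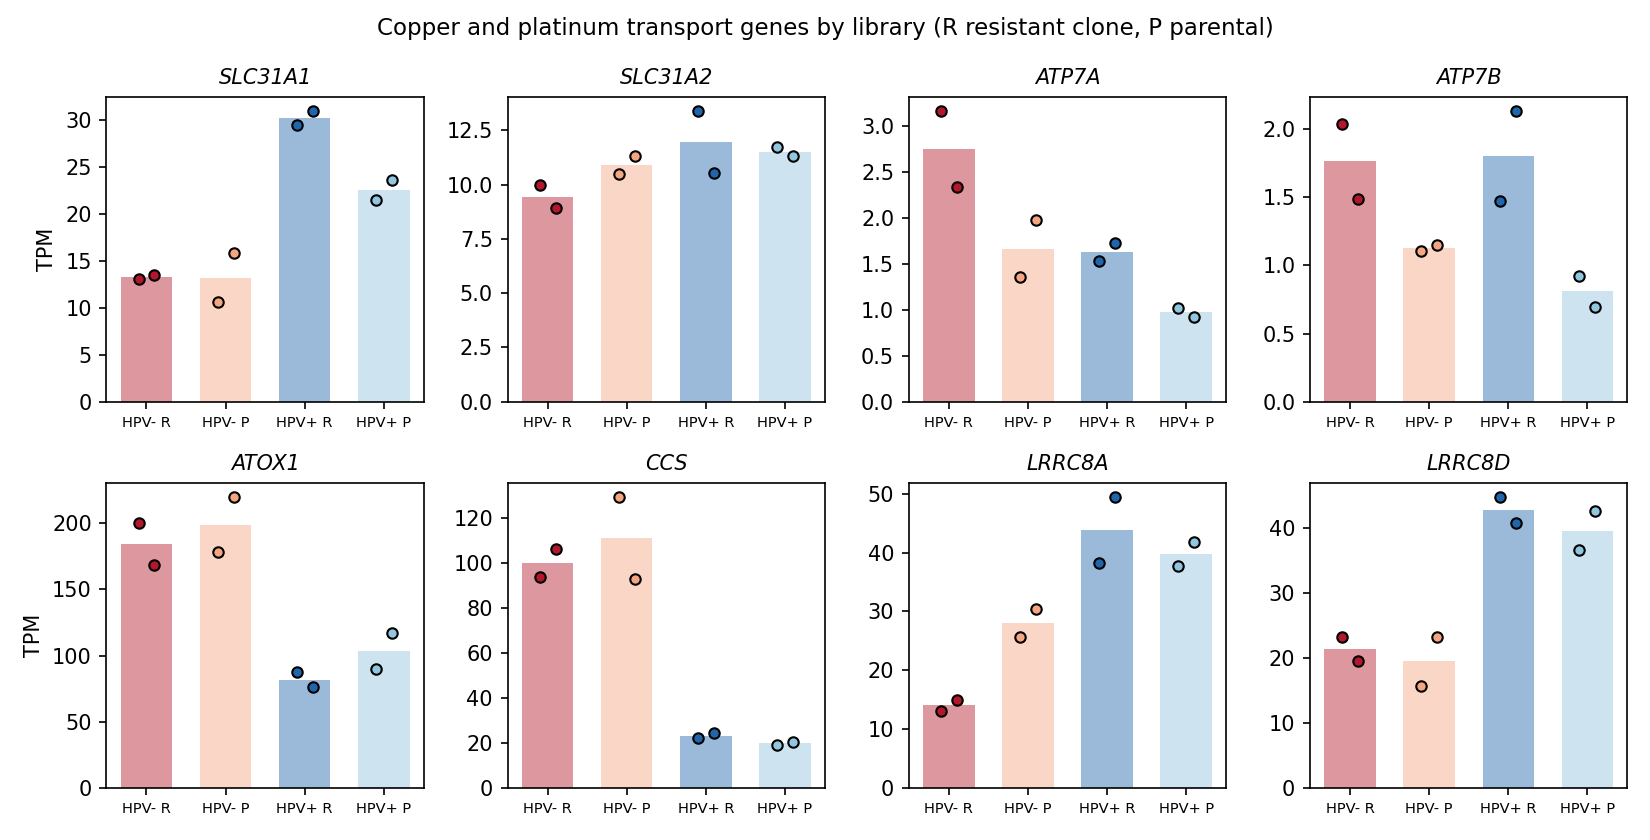
Level of each of the 8 genes in TPM (vertical axis, a separate scale per gene) in each library. Points are libraries and bars are group means of 2 libraries, with R for the resistant clone and P for the parental line. LRRC8A stood at 13.1 and 15.0 TPM in HPV- resistant libraries and at 25.7 and 30.3 TPM in HPV- parental libraries, and CCS and ATOX1 were lower in the HPV+ line.

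Of the 8 genes, only LRRC8A had a change with resistance that differed between the lines by the test of that difference. In the HPV- clone the channel subunit LRRC8A fell to less than 50% of its parental level, and the exporter ATP7A rose. In the HPV+ clone the exporter ATP7B rose, and LRRC8A overlapped its parental level. The importer SLC31A1 did not pass the test in either clone. Between the parental lines CCS differed most, and the chaperones CCS and ATOX1 were both lower in HPV+ cells. In the HPV- clone 2 of the 8 genes were called, 1 higher and 1 lower, beside 26.8% of all genes tested (12.8% higher and 14.1% lower). In the HPV+ clone 1 of 8 was called, higher, beside 18.1% of all genes (7.65% higher). Neither share was above that of all genes, so the calls describe single genes and not the list.

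The promoters of SLC31A1, ATP7B and LRRC8A are shown for reference. They are the 250 bases before the RefSeq start on GRCh38.p14, 5′ to 3′ on the gene's strand. SLC31A1 was called in neither clone, and ATP7A, called in the HPV- clone, is not shown. Capitals mark the GC box (GGGCGG, or CCGCCC on the other strand), the motif bound by SP1, a factor known to control SLC31A1.
SLC31A1, chr9:113221294-113221543, plus strand: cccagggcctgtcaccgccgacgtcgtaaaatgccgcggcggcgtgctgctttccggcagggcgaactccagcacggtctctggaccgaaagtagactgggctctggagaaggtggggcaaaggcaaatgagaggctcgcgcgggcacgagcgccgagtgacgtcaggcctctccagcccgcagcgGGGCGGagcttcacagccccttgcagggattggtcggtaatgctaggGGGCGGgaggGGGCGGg
ATP7B, chr13:52012133-52012382, minus strand: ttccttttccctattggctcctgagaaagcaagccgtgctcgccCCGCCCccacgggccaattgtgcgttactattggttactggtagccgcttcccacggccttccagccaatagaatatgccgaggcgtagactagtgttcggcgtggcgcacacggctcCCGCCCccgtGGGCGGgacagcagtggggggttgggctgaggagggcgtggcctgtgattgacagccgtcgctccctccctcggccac
LRRC8A, chr9:128881883-128882132, plus strand: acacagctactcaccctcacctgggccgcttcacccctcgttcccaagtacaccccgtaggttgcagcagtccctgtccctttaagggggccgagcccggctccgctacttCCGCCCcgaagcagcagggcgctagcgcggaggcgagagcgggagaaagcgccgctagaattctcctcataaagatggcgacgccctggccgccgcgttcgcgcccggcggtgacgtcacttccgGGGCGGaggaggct
SLC31A1 and ATP7B held 3 GC boxes each and LRRC8A held 2, and 42.6% of 35116 RefSeq promoters of the same length held at least 1. The core of the metal response element (TGCACNC or TGCGCNC, both strands) had 0 matches in these windows and was found in 24.8% of all promoters. Promoters were found for 7 of the 8 genes, all but SLC31A2. Among the other promoters, ATP7A and CCS held 0 GC boxes, and ATOX1 and LRRC8D held 1 each. The metal response element core had 2 matches each in ATOX1 and CCS and 0 in ATP7A and LRRC8D. Whether these motifs relate to the changes was not tested.

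SLC31A1, the high-affinity copper importer (GRCh38 chr9:113221544-113264492, plus strand), had 52.5 and 52.8 CPM in HPV- resistant libraries and 49.5 and 60.5 CPM in HPV- parental libraries. The groups overlapped, and the log2 fold change was -0.06 (SE 0.14, 95% interval -0.38 to 0.25, edgeR quasi-likelihood test with Benjamini-Hochberg adjustment, adjusted p = 0.784). The lower bound of that interval limits any fall in the HPV- clone. Cells of the HPV+ line had 113 and 112 CPM in resistant libraries and 81.6 and 88.7 CPM in parental libraries. Both resistant libraries were above both parental libraries, with a log2 fold change of 0.40 (SE 0.14, interval 0.09 to 0.71) that did not pass the adjusted threshold (unadjusted p = 0.0177, adjusted p = 0.0760). DESeq2 put the same difference at 0.42 with an adjusted p of 0.047, and 6 of 16 alternative settings called it. The processed copy SLC31A1P1 held 1 read pair over all 8 libraries.

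SLC31A2, a low-affinity relative found on internal membranes (chr9:113150976-113164140, plus strand), had 13.2 and 12.1 CPM in HPV- resistant libraries and 17.1 and 15.8 CPM in HPV- parental libraries. The libraries did not overlap, but the log2 fold change of -0.38 (SE 0.20) did not pass the test (adjusted p = 0.180). The HPV+ levels were 16.7 and 12.6 CPM in resistant libraries and 15.7 and 13.7 CPM in parental libraries, and they overlapped. Of its exonic bases, 64.0% are shared with FKBP15 on the opposite strand, and no source says whether the counting used strand, so its reads may be split with that gene.

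ATOX1, the chaperone that carries copper to ATP7A and ATP7B (chr5:151742316-151772532, minus strand), had 40.7 and 36.6 CPM in HPV- resistant libraries and 48.1 and 47.3 CPM in HPV- parental libraries. It had 16.8 and 14.6 CPM in HPV+ resistant libraries and 19.2 and 22.3 CPM in HPV+ parental libraries. Both clones were below their parental libraries with no overlap, yet neither difference passed the test, with log2 fold changes of -0.30 (SE 0.15, adjusted p = 0.173) in the HPV- line and -0.40 (SE 0.16, adjusted p = 0.103) in the HPV+ line. None of the 16 alternatives called either.

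CCS, which delivers copper to superoxide dismutase SOD1 (chr11:66593153-66606019, plus strand), had 64.6 and 75.9 CPM in HPV- resistant libraries and 117 and 72.0 CPM in HPV- parental libraries. The parental libraries lay far apart, and the log2 fold change of -0.43 (SE 0.21, adjusted p = 0.154) depended on which was kept. Without parental library 2 it was -0.81 with an adjusted p of 0.00260, and without parental library 1 it was -0.05. It had 14.2 and 15.8 CPM in resistant libraries and 14.9 and 14.1 CPM in parental libraries of the HPV+ line, which overlapped.

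**Figure D2:**
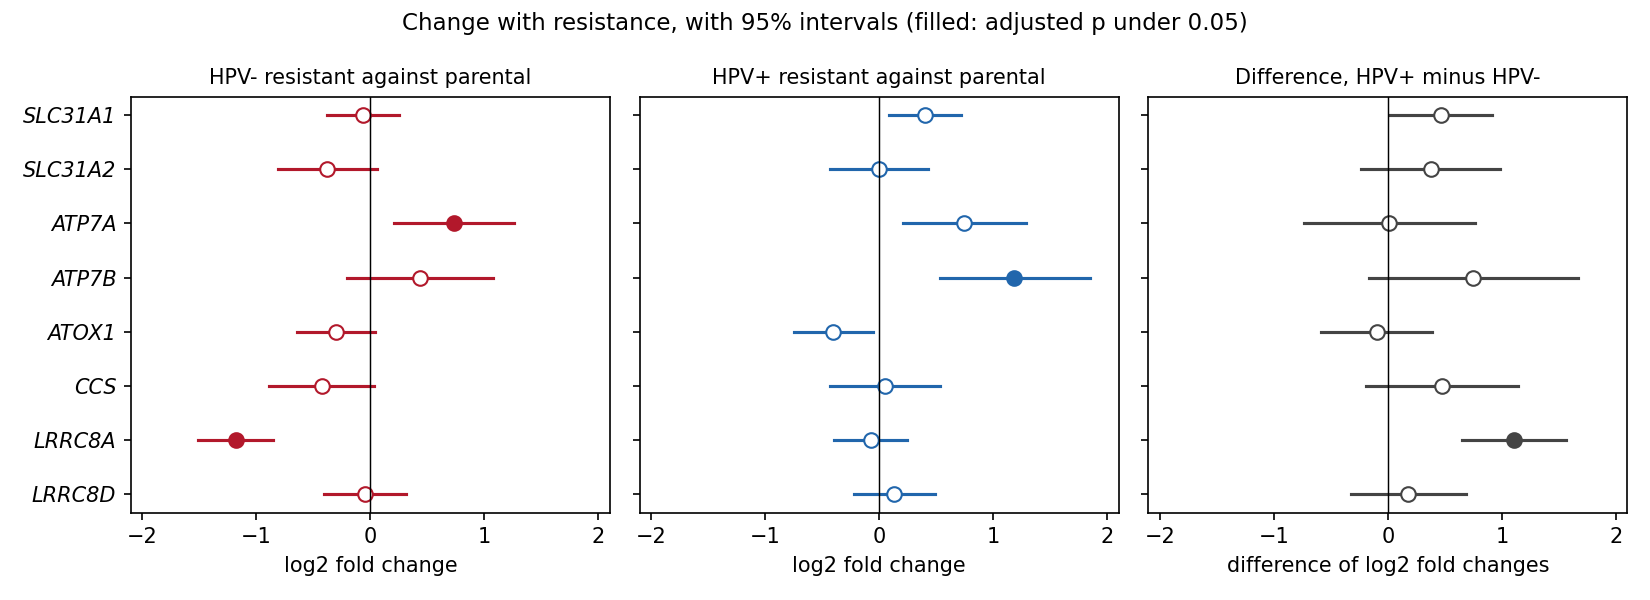
Log2 fold change (horizontal axis) of each gene in the HPV- resistant clone against its parental line, in the HPV+ resistant clone against its parental line, and the difference between these changes. Points are edgeR estimates from 2 libraries per group, lines are 95% intervals, and filled points have an adjusted p under 0.05. LRRC8A is at -1.18 in the HPV- panel and at -0.07 in the HPV+ panel.

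ATP7A, an exporter present in most cell types (chrX:77910690-78050395, plus strand), had 24.1 and 17.2 CPM in HPV- resistant libraries and 10.0 and 14.7 CPM in HPV- parental libraries. It rose with a log2 fold change of 0.73 (SE 0.24, interval 0.21 to 1.26, adjusted p = 0.0435), close to the threshold, and 7 of 16 alternatives called it. The call was lost without HPV- resistant library 1 (0.46, adjusted p = 0.290) or HPV- parental library 1 (0.48, adjusted p = 0.219), and without any 1 of the 4 HPV+ libraries (adjusted p from 0.0571 to 0.0913). For the HPV+ line the values were 9.91 and 9.96 CPM in resistant libraries and 5.86 and 6.0 CPM in parental libraries. That difference had almost the same size, 0.74 (SE 0.24, interval 0.21 to 1.28), and lay just outside the threshold (adjusted p = 0.0586), with a call under 6 of 16 alternatives. The difference between the lines in this change was 0.01 (SE 0.34, interval -0.74 to 0.76, adjusted p = 1), so the call in the HPV- clone alone does not separate the lines. Of 57 transcripts annotated for ATP7A, 8 were in the files, and its sum may miss reads of the others.

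ATP7B, the exporter best known from liver, where its loss causes Wilson disease (chr13:51930436-52012125, minus strand), had 5.83 and 7.87 CPM in HPV+ resistant libraries and 3.14 and 2.87 CPM in HPV+ parental libraries. It rose 2.28-fold, with a log2 fold change of 1.19 (SE 0.30, interval 0.53 to 1.84, adjusted p = 0.0212). Both resistant libraries were above both parental libraries, at 147 and 203 estimated read pairs in resistant libraries and 80 and 76 in parental libraries. The call was lost with an offset for transcript length (adjusted p = 0.0773), and without parental library 1 (0.130), parental library 2 (0.140) or resistant library 2 (0.122). The HPV- line had 10.6 and 6.83 CPM in resistant libraries and 5.98 and 6.85 CPM in parental libraries, which overlapped (log2 fold change 0.44, SE 0.29, adjusted p = 0.289). The change did not differ between the lines by the test of that difference (0.75, SE 0.41, interval -0.16 to 1.66, adjusted p = 0.249).

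At these low levels the ATP7B reads were spread over many transcripts. Transcripts annotated as protein coding took 60.2% and 57.9% of its TPM in HPV+ resistant libraries and 21.0% and 58.6% in HPV+ parental libraries. They took 77.2% and 72.2% in HPV- resistant libraries and 56.8% and 78.9% in HPV- parental libraries. The coding transcripts summed to 0.886 and 1.24 TPM in HPV+ resistant libraries and 0.194 and 0.409 TPM in HPV+ parental libraries. The higher level in the HPV+ clone was thus present in the coding transcripts as well as in the gene sum. The standard (MANE Select) transcript varied from 4.28% to 37.0% of the gene between the 2 HPV+ parental libraries, so single ATP7B transcripts could not be compared at this depth. For LRRC8A, by contrast, coding transcripts took 86.3% to 97.7% of TPM over all 8 libraries.

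LRRC8A, the subunit that every volume-regulated anion channel needs (chr9:128882133-128918039, plus strand), had 45.6 and 54.2 CPM in HPV- resistant libraries and 109 and 117 CPM in HPV- parental libraries. It fell to 0.441 of the parental level in the HPV- clone, with a log2 fold change of -1.18 (SE 0.15, interval -1.51 to -0.85, adjusted p = 0.000519). All 16 alternatives called this fall, with log2 fold changes from -1.32 to -1.06. It was also the only 1 of the 8 genes to pass a log2 fold change beyond 1 in that clone, a rule that 11.3% of all genes passed. The HPV+ levels were 129 and 147 CPM in resistant libraries and 141 and 149 CPM in parental libraries, which overlapped (log2 fold change -0.07, SE 0.14, interval -0.39 to 0.25, adjusted p = 0.764).

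The difference between the lines in the LRRC8A change was itself past the threshold, at 1.11 (SE 0.21, interval 0.65 to 1.56, adjusted p = 0.00547), and all 15 alternatives called it. It was the only call among the 8 genes in that comparison, beside 16.7% of all genes tested. SLC31A1 had a difference of 0.46 (SE 0.20, adjusted p = 0.146) and CCS of 0.48 (SE 0.30, adjusted p = 0.319). Neither passed.

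LRRC8D, the partner subunit linked to cisplatin entry (chr1:89821014-89936611, plus strand), had 45.5 and 45.2 CPM in HPV- resistant libraries and 40.5 and 53.1 CPM in HPV- parental libraries. It had 84.5 and 81.1 CPM in HPV+ resistant libraries and 69.1 and 81.8 CPM in HPV+ parental libraries. Its log2 fold changes were -0.05 (SE 0.16, interval -0.40 to 0.31, adjusted p = 0.871) in the HPV- clone and 0.13 (SE 0.16, interval -0.22 to 0.49, adjusted p = 0.597) in the HPV+ clone. Neither passed the test, and both intervals lie above the -1.18 of LRRC8A in the HPV- clone.

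**Figure D3:**
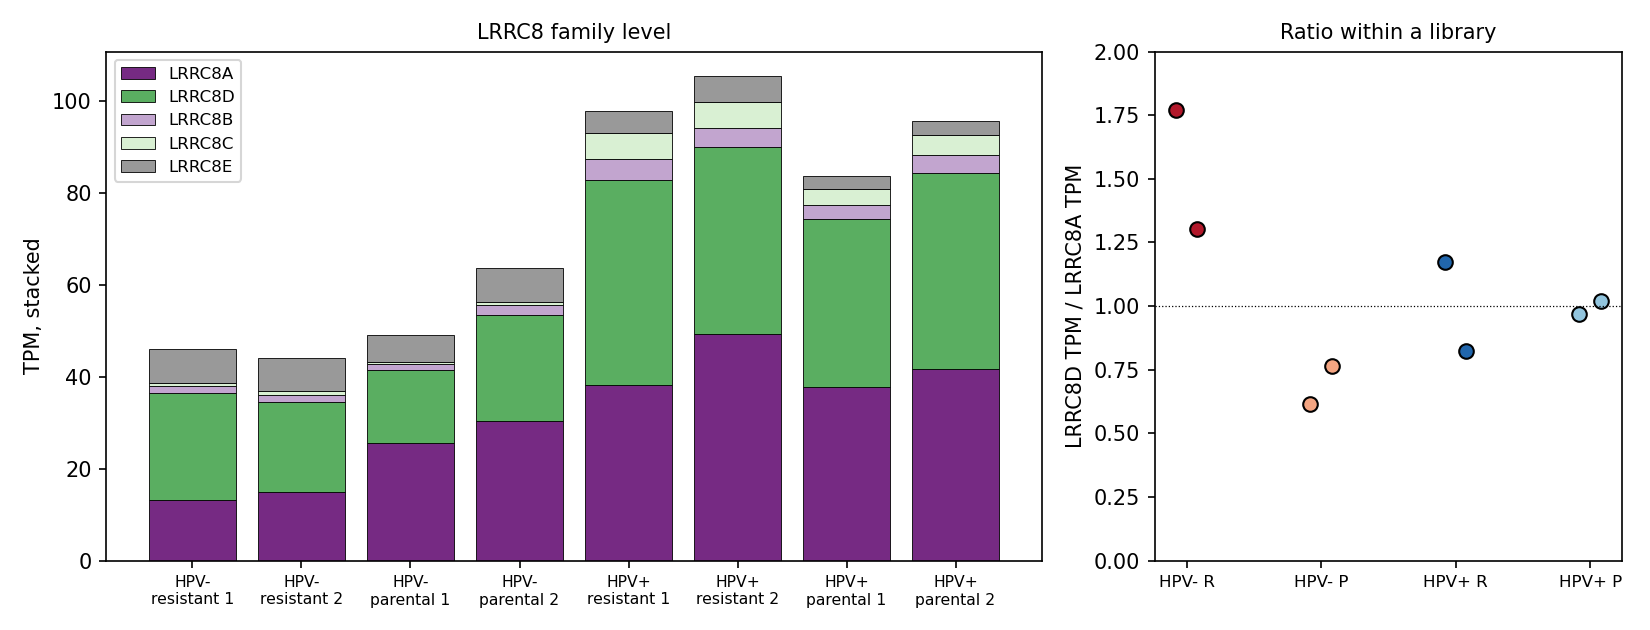
Left, the TPM of the 5 LRRC8 family genes stacked for each library. Right, the ratio of LRRC8D to LRRC8A TPM within each library, with points for libraries, R for resistant and P for parental and a dotted line at equal levels. The ratio was 1.77 and 1.30 in HPV- resistant libraries and 0.614 and 0.765 in HPV- parental libraries.

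With LRRC8A lower and LRRC8D not, the make-up of the family transcripts differed in the HPV- clone. LRRC8A took 28.5% and 34.0% of the summed TPM of the 5 LRRC8 genes in HPV- resistant libraries and 52.2% and 47.7% in HPV- parental libraries. Of the HPV+ family total it took 39.1% and 46.8% in resistant libraries and 45.1% and 43.7% in parental libraries, which overlapped. The ratio of LRRC8D to LRRC8A was above 1 in both HPV- resistant libraries and below 1 in both HPV- parental libraries. It was 1.17 and 0.825 in HPV+ resistant libraries and 0.967 and 1.02 in HPV+ parental libraries. The LRRC8D TPM includes LRRC8D-206, a short transcript of 922 bases. Its share of LRRC8D was 24.2% and 27.1% in HPV- resistant libraries and 27.5% and 25.7% in HPV- parental libraries. In the HPV+ line it was 18.5% and 14.3% in resistant libraries and 36.6% and 32.5% in parental libraries. In HPV- resistant library 2 this transcript held 5.30 of the 19.5 TPM of LRRC8D, beside 15.0 TPM for LRRC8A. Without LRRC8D-206, LRRC8D would be below LRRC8A in that library, so the ratio above 1 there depends on this short transcript. In HPV- resistant library 1 it held 5.62 of 23.3 TPM, beside 13.1 TPM for LRRC8A, and LRRC8D would stay above.

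The 3 remaining family members, LRRC8B, LRRC8C and LRRC8E, gave 0 calls in either clone with edgeR and 0 with DESeq2. Over all genes edgeR called 26.8% in the HPV- clone and 18.1% in the HPV+ clone, so 0 of 3 is not a result about the family. Before adjustment, 0 had a p under 0.05 in the HPV- clone and 1 did in the HPV+ clone, which was LRRC8C (0.48, SE 0.21, adjusted p = 0.144). LRRC8C did separate the lines. It had 5.77 and 5.69 TPM in HPV+ resistant libraries and 0.690 and 0.943 TPM in HPV- resistant libraries, and 3.34 and 4.32 TPM in HPV+ parental libraries and 0.419 and 0.753 TPM in HPV- parental libraries. Between HPV+ parental and HPV- parental cells LRRC8B was higher by 0.72 (adjusted p = 0.00732, and 0.0721 without HPV+ parental library 2) and LRRC8C by 2.49 (adjusted p = 9.0e-06), and LRRC8E was lower (log2 fold change -0.98, adjusted p = 0.00257). The summed family level was 83.8 and 95.7 TPM in HPV+ parental libraries and 49.2 and 63.6 TPM in HPV- parental libraries.

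The lines differed in these genes before selection. Between HPV+ parental and HPV- parental cells 6 of the 8 genes were called, 2 higher and 4 lower, beside 58.0% of all genes tested (28.0% higher and 30.0% lower). CCS was lowest relative to the HPV- line, with a log2 fold change of -2.71 (SE 0.22, adjusted p = 3.63e-06), followed by ATOX1 at -1.20 (SE 0.16, adjusted p = 8.64e-05), ATP7B at -1.09 (SE 0.30, adjusted p = 0.00913) and ATP7A at -1.06 (SE 0.24, adjusted p = 0.00351). The ATP7B call was lost with an offset for transcript length (-0.68, adjusted p = 0.130) and without HPV+ parental library 2 (-1.03, adjusted p = 0.0648). LRRC8D was higher by 0.69 (SE 0.16, adjusted p = 0.00387) and SLC31A1 by 0.63 (SE 0.14, adjusted p = 0.00333). LRRC8A, at 0.36 (SE 0.14, adjusted p = 0.0524), and SLC31A2, at -0.16 (SE 0.19, adjusted p = 0.495), did not pass.

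Between the HPV+ resistant and HPV- resistant clones 6 of 8 were called as well, 3 higher and 3 lower, beside 57.9% of all genes (27.5% higher and 30.4% lower). LRRC8A now differed, with a log2 fold change of 1.47 (SE 0.15, adjusted p = 1.41e-05), and SLC31A1 was higher by 1.09 (SE 0.14, adjusted p = 9.44e-05). LRRC8D was higher by 0.87 (SE 0.16, adjusted p = 0.000960). CCS at -2.23, ATOX1 at -1.30 and ATP7A at -1.05 were lower. ATP7B, at -0.35 (SE 0.29, adjusted p = 0.324), did not pass. The comparisons between lines and within lines share libraries, so they are not independent of each other.

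Set side by side per length, ATOX1 was the most abundant of the 8 in every group, at 168 to 200 TPM in HPV- resistant libraries, 178 to 220 TPM in HPV- parental libraries, 76.3 to 87.4 TPM in HPV+ resistant libraries and 89.7 to 117 TPM in HPV+ parental libraries. Its transcript is short, 471 bases for the main form, so its TPM is more sensitive to the length correction than that of the others. CCS came next in the HPV- line, at 93.5 and 106 TPM in resistant libraries and 129 and 92.9 TPM in parental libraries. In the HPV+ line CCS ranked below LRRC8A, LRRC8D and SLC31A1, at 22.0 and 24.2 TPM in resistant libraries and 19.3 and 20.5 TPM in parental libraries.

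LRRC8D ranked above LRRC8A in the HPV- clone, where their libraries did not overlap, and below it in the HPV- parental line, again without overlap. This order counts the short transcript LRRC8D-206, at 5.62 and 5.30 TPM in HPV- resistant libraries. Without it the libraries of LRRC8D and LRRC8A would overlap in the HPV- clone, and LRRC8D would stay lower in the HPV- parental line. In both HPV+ groups the libraries of LRRC8A and LRRC8D overlapped. SLC31A2 was in place 6 in all 4 groups. The exporters were the least abundant everywhere, ATP7A at 0.919 to 3.16 TPM and ATP7B at 0.698 to 2.13 TPM over all 8 libraries. Their summed level was 5.20 and 3.82 TPM in HPV- resistant libraries and 2.46 and 3.12 TPM in HPV- parental libraries, and 3.01 and 3.86 TPM in HPV+ resistant libraries and 1.94 and 1.62 TPM in HPV+ parental libraries. In both lines each resistant library was above each parental library in this sum, which was not tested.

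Genes beside the members along the chromosome were examined, taking 10 tested genes on each side. Around LRRC8A (chr9:128633653-129636135) the median log2 fold change of the 20 neighbours in the HPV- clone was -0.33, with 5 called lower and 2 higher, beside a median of 0.04 over all genes, of which 14.1% were called lower and 12.8% higher. Only 1 of the 20 was lower than LRRC8A. In the HPV+ clone, where LRRC8A was at -0.07, the same 20 had a median of -0.35, with 7 called lower and 0 higher. All genes there had a median of 0.00, with 10.5% called lower and 7.65% higher. The part of the region in the LRRC8A change was not tested. Around ATP7B (chr13:50015254-52476628) the neighbours in the HPV+ clone had a median of 0.07, with 2 called higher and 1 lower (7.65% and 10.5% of all genes), and 19 of 20 were below ATP7B.

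CCS was different in this respect. Between HPV+ parental and HPV- parental cells 19 of its 20 neighbours (chr11:66345374-67050863) were called lower, where 30.0% of all genes tested were, and their median log2 fold change was -1.78. The log2 fold change of CCS itself, -2.71, was within their range of -8.79 to -0.43, and 4 of the 20 had a lower log2 fold change.

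**Figure D4:**
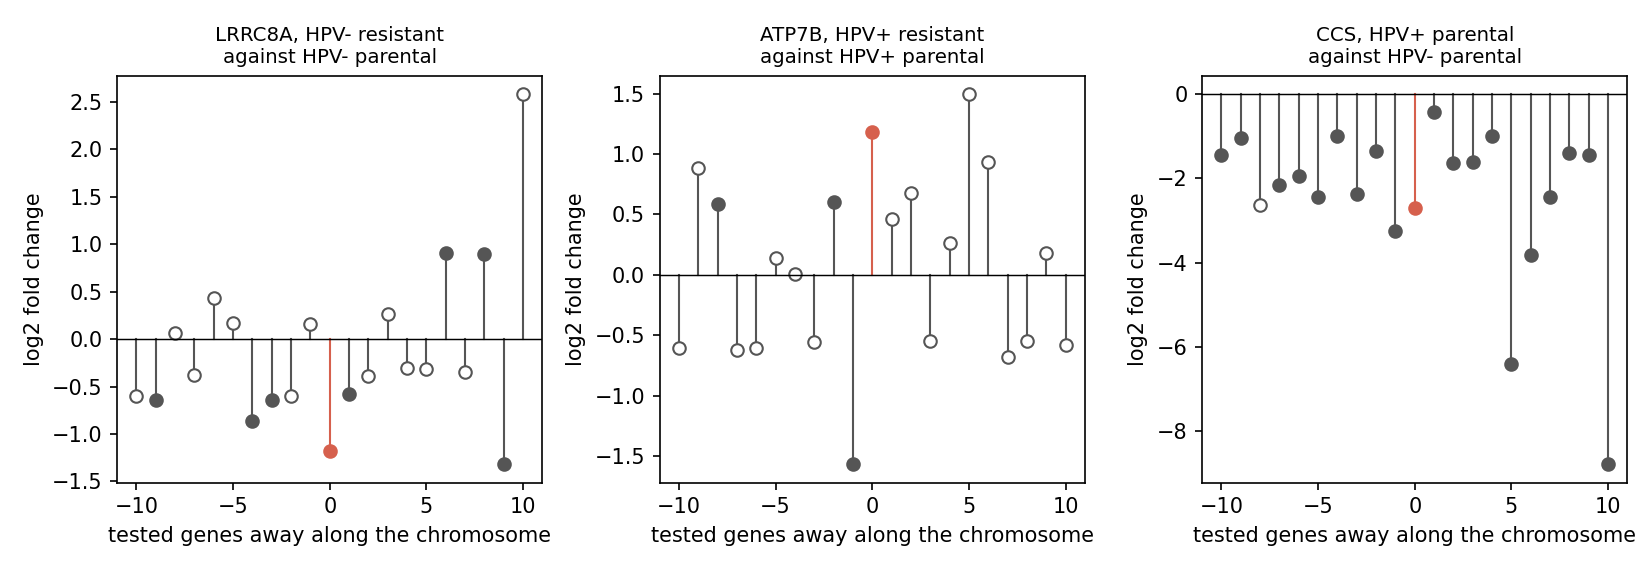
Log2 fold change (vertical axis, a separate scale per panel) of the 10 tested genes on each side of LRRC8A, ATP7B and CCS (grey), ordered along the chromosome, with the member itself in red at 0. Filled points have an adjusted p under 0.05 by edgeR. In the CCS panel all 20 neighbours lie below 0, with a median of -1.78.

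Over the 8 libraries, the genes whose log2 CPM followed LRRC8A most closely were NOL6 (Pearson r = 0.996), ODC1 and GOT1. Those most like SLC31A1 were USP54 (r = 0.998), HSPA13 and PCNT, those most like CCS were KCNE3 (r = 0.998), TAGLN3 and TOX4, and those most like ATOX1 were CDCA7 (r = 0.994), CAPZA1 and MICU2. ATP7A was most like TBC1D8B (r = 0.995), XPR1 and PCNX1, and ATP7B most like ATM (r = 0.986), PSEN2 and ORC4. LRRC8D was most like SMC2 (r = 0.994), OTULINL and HDAC2. SLC31A2, whose level differed little, reached only r = 0.933 with its nearest gene. The 8 points fall into 4 groups from 2 cell lines, so high values can follow differences between groups or lines. These correlations are a description only.

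The copper pathway around the 8 genes was described with 6 lists of 69 genes. The first is mitochondrial copper delivery, the proteins that supply copper to cytochrome c oxidase and their helpers. In the HPV- clone 6 of its 10 genes fell and 0 rose, with a list median of -0.57 beside 0.04 over all genes. In the HPV+ clone 2 of 10 fell and 0 rose, with a list median of -0.25 beside 0.00 over all genes. For comparison, 14.1% of all genes were called lower in the HPV- clone and 10.5% in the HPV+ clone. Over the alternatives the number of these 10 genes called ran from 3 to 6 in the HPV- clone, lowest without HPV- resistant library 1, and from 1 to 3 in the HPV+ clone, lowest without HPV+ resistant library 1, resistant library 2 or parental library 1.

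COX17, the chaperone that brings copper into the mitochondrial space between the membranes, fell in both clones. It had 26.8 and 32.8 CPM in HPV- resistant libraries and 99.2 and 64.0 CPM in HPV- parental libraries (log2 fold change -1.45, SE 0.21, adjusted p = 0.00100). In the HPV+ line it had 21.9 and 19.1 CPM in resistant libraries and 67.7 and 65.7 CPM in parental libraries (log2 fold change -1.70, SE 0.21, adjusted p = 0.000736). All 16 alternatives called it in each line. No library of a clone overlapped a library of its parental line.

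The partners of COX17 moved less evenly. SCO2, which passes copper to the oxidase, fell in the HPV+ clone, at 4.88 and 4.96 CPM in resistant libraries and 12.8 and 11.9 CPM in parental libraries (log2 fold change -1.32, SE 0.27, adjusted p = 0.00858). That call was lost without HPV+ resistant library 1, resistant library 2 or parental library 1 (adjusted p from 0.0502 to 0.0676). SCO2 also fell in the HPV- clone (-0.81, SE 0.26, adjusted p = 0.0394), but only 6 of 16 alternatives called it, and it was lost without any library other than HPV- resistant library 2 and HPV- parental library 2 (adjusted p up to 0.258). COA6 fell in the HPV- clone (-1.10, SE 0.19, adjusted p = 0.00237) and had a log2 fold change of -0.22 (adjusted p = 0.433) in the HPV+ clone. SCO1 fell in the HPV- clone (-0.58, SE 0.13, adjusted p = 0.00904) and had 0.16 (adjusted p = 0.415) in the HPV+ clone. For COA6 and SCO1 the difference between the lines passed the threshold as well (adjusted p = 0.0429 and 0.0204). The COA6 difference was called in 5 of 15 and lost without any library other than HPV- parental library 2 (adjusted p up to 0.165). The SCO1 difference was called in 9 of 15. It was lost without HPV- resistant library 2 or any 1 of the 4 HPV+ libraries (0.74 to 0.78). It was also lost with the transcript length offset (0.53, edgeR adjusted p = 0.150).

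Of 17 genes for copper-dependent enzymes 12 were tested. In the HPV- clone 3 rose and 1 fell, beside 12.8% of all genes called higher and 14.1% lower. PAM, which amidates peptide hormones, had 94.4 and 99.3 CPM in HPV- resistant libraries and 42.4 and 58.3 CPM in HPV- parental libraries (log2 fold change 0.94, SE 0.17, adjusted p = 0.00339). LOXL4, a lysyl oxidase that cross-links collagen, had 7.91 and 8.58 CPM in HPV- resistant libraries and 1.39 and 0.947 CPM in HPV- parental libraries (2.82, SE 0.52, adjusted p = 0.00363), and MOXD1 also rose (1.59, SE 0.34, adjusted p = 0.00692).

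SOD1, which receives its copper from CCS, fell slightly in the HPV- clone, with 148 and 131 CPM in HPV- resistant libraries and 195 and 197 CPM in HPV- parental libraries (-0.49, SE 0.14, adjusted p = 0.0275). That call held in 10 of 16 alternatives, and was lost without HPV- resistant library 1, HPV- resistant library 2 or HPV+ parental library 2 (adjusted p from 0.0549 to 0.122). In the HPV+ clone edgeR and DESeq2 each called 0 of the 12 enzymes, beside 18.1% of all genes called by edgeR. With so few genes, 0 calls is not a result about the list. Of the 12, 1 had an unadjusted edgeR p under 0.05, LOXL1, which was named after its values were seen.

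**Figure D5:**
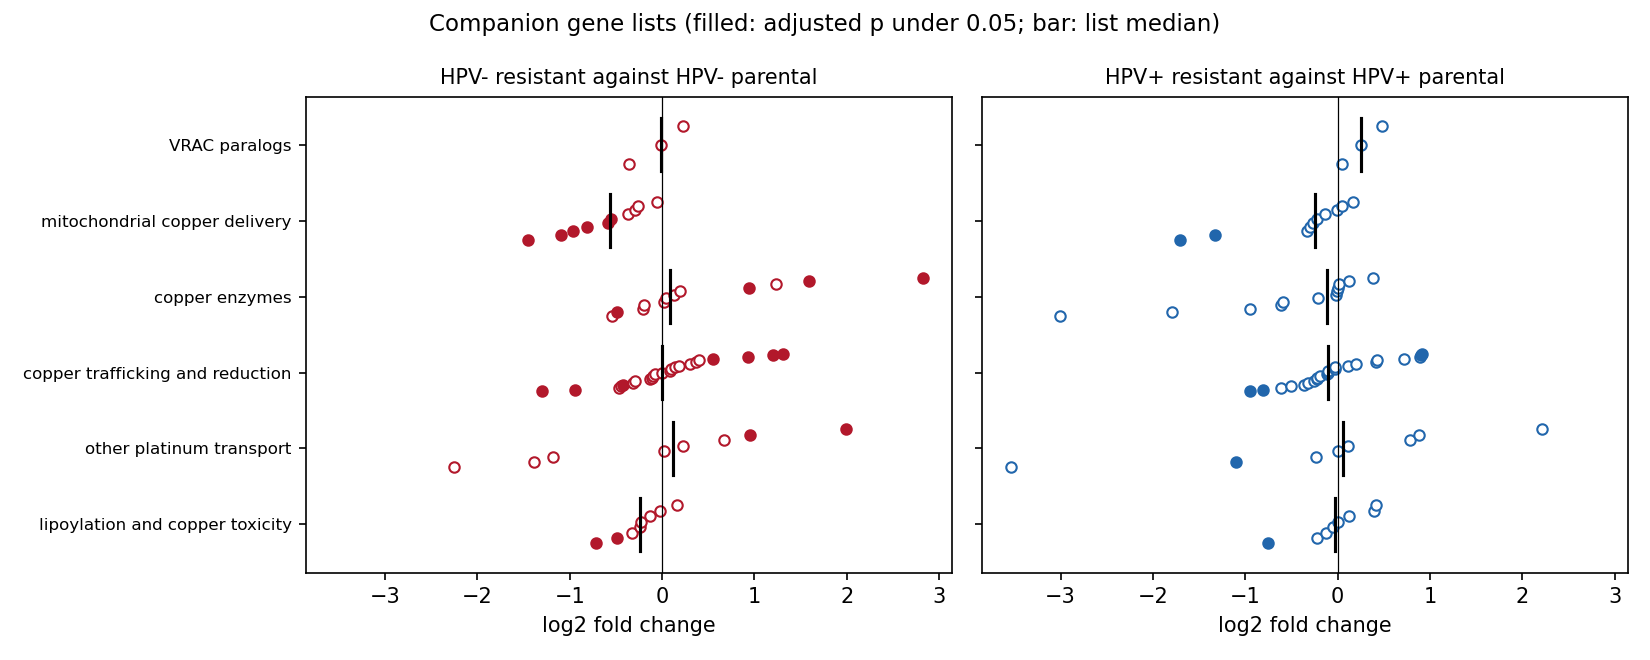
Log2 fold change (horizontal axis) of the genes of the 6 companion lists in each resistant clone against its parental line. Points are genes, filled with an adjusted p under 0.05 by edgeR, and vertical bars are list medians. Open points far from 0 are genes with few reads, and in the mitochondrial copper delivery list 6 of 10 genes are filled and below 0 in the HPV- panel.

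Among 23 genes of copper trafficking, sensing and reduction, 4 rose and 3 fell in the HPV- clone, and 1 rose and 2 fell in the HPV+ clone. The shares over all genes were 12.8% called higher and 14.1% lower with resistance in the HPV- line, against 7.65% and 10.5% for the HPV+ line. Over the alternatives the number called in this list ran from 3 (without HPV- resistant library 1) to 11 (without HPV- parental library 2) in the HPV- clone, and from 0 (without HPV+ parental library 1) to 9 (with only the 4 libraries compared) in the HPV+ clone. The metalloreductase STEAP2, of a family that reduces copper and iron for uptake, rose in both. It had 36.1 and 28.0 CPM in HPV- resistant libraries and 12.9 and 13.0 CPM in HPV- parental libraries (log2 fold change 1.31, SE 0.18, adjusted p = 0.000861). In the HPV+ line it had 17.8 and 16.7 CPM in resistant libraries and 8.88 and 9.52 CPM in parental libraries (0.91, SE 0.18, adjusted p = 0.00820), a call lost without parental library 1 (0.84, adjusted p = 0.105) or parental library 2 (0.95, adjusted p = 0.0584). STEAP3, its relative, rose in the HPV- clone (1.20, SE 0.18, adjusted p = 0.00117), and the difference between the lines for STEAP3 passed the threshold (-1.32, adjusted p = 0.00587).

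The COMMD proteins belong to a complex that returns ATP7A and ATP7B from endosomes. COMMD5 (-1.30, SE 0.22, adjusted p = 0.00238) and COMMD2 (-0.42, SE 0.13, adjusted p = 0.0373) fell in the HPV- clone, with CUTC (-0.94, SE 0.22, adjusted p = 0.0110), and VPS35L, of the same retrieval machinery, rose (0.93, SE 0.24, adjusted p = 0.0172). COMMD4 (-0.81, SE 0.16, adjusted p = 0.00848) and COMMD1 (-0.95, SE 0.24, adjusted p = 0.0232) fell in the HPV+ clone. In the HPV+ clone COMMD5 was at -0.61 (adjusted p = 0.0794), VPS35L at 0.72 (0.0562), CUTC at -0.22 (0.506) and COMMD2 at 0.19 (0.324). In the HPV- clone COMMD4 was at -0.47 (adjusted p = 0.0556) and COMMD1 at -0.005. Of these genes only COMMD2 differed between the lines by the edgeR test of that difference (adjusted p = 0.0446, the others 0.0802 to 0.723). Several of the calls within a clone rest on single libraries. COMMD2 was called in 4 of 16 alternatives, with adjusted p up to 0.124 and losses without every library but HPV- parental library 2. Without HPV- resistant library 1, CUTC was at -0.81 (adjusted p = 0.0761) and VPS35L at 0.64 (adjusted p = 0.139), and VPS35L was at 0.67 (adjusted p = 0.104) without HPV- parental library 2. COMMD4 was lost without HPV+ resistant library 2 or either HPV+ parental library (adjusted p from 0.0581 to 0.0763). COMMD1 was lost without either HPV+ resistant library (adjusted p of 0.0935 and 0.0956) or HPV+ parental library 1 (-0.63, adjusted p = 0.241). Over the alternatives the number called in this list ran from 3 to 11 in the HPV- clone and from 0 to 9 in the HPV+ clone.

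Of 9 further genes for carriers that have been linked to platinum drugs 8 were tested. EdgeR called 2 higher and 0 lower in the HPV- clone, beside 12.8% and 14.1% of all genes. It called 0 higher and 1 lower in the HPV+ clone, beside 7.65% and 10.5% of all genes. SLC47A2, an exporter of organic cations known best from kidney, moved in opposite directions in the clones. It had 28.6 and 26.5 CPM in HPV- resistant libraries and 7.96 and 5.91 CPM in HPV- parental libraries, and rose (log2 fold change 1.99, SE 0.19, adjusted p = 0.000173). It had 65.8 and 49.9 CPM in HPV+ resistant libraries and 130 and 119 CPM in HPV+ parental libraries, and fell (-1.10, SE 0.18, adjusted p = 0.00274).

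The difference between these changes was -3.09 (adjusted p = 8.13e-05), and all 16 alternatives called the change in each line. SLC22A5, a carnitine transporter, rose in the HPV- clone (0.95, SE 0.18, adjusted p = 0.00379), and the difference between the lines passed the threshold (-0.94, adjusted p = 0.0278). That difference was called in 9 of 15 alternatives, and lost without any library other than HPV- parental library 1 and HPV+ resistant library 1 (adjusted p up to 0.160). Among 8 genes of protein lipoylation and copper toxicity, DLAT (-0.72, SE 0.13, adjusted p = 0.00386) and PDHA1 (-0.48, SE 0.13, adjusted p = 0.0195), subunits of pyruvate dehydrogenase, fell in the HPV- clone. PDHB, another subunit, fell in the HPV+ clone (-0.76, SE 0.15, adjusted p = 0.00770). The difference between the lines did not pass the edgeR test for DLAT (adjusted p = 0.107), PDHA1 (0.208) or PDHB (0.122). The PDHA1 call was lost without HPV- resistant library 1 (-0.43, adjusted p = 0.101) or HPV+ parental library 2 (-0.49, adjusted p = 0.0508), and the PDHB call without HPV+ resistant library 2 (-0.65, adjusted p = 0.0835) or HPV+ parental library 1 (-0.71, adjusted p = 0.0782).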

How the data were processed

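RNA from 8 libraries, 2 for each of 4 groups, was analysed. The authors made polyA libraries, sequenced paired reads on an Illumina NovaSeq, checked them with fastQC and multiQC, and ran Salmon against GRCh38. The Salmon version is not given in the sources used here, nor is the annotation. The deposited files give, for each of 187432 transcripts, the estimated count of read pairs, the TPM (scaled by Salmon for length and depth) and the effective length. Of these transcripts 172550 (92.1%) were matched to GENCODE release 44 by identifier. The rest held 4.33% to 5.13% of read pairs and were left out. Estimated counts were summed by gene and rounded.

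Genes were filtered with filterByExpr, scaled by TMM and tested with the edgeR 4.0.16 quasi-likelihood test (R 4.3.3), with 1 coefficient per group over all 8 libraries, and p-values were adjusted over 15221 genes. A gene was called at an adjusted p under 0.05. The precision is that of 2 libraries per group, with 4 residual degrees of freedom. The authors used DESeq2 with an added log2 fold change beyond 1, and DESeq2 1.42.0, that fold rule, other scalings, other filters, a length offset, a replicate block and leaving out each library were the alternatives. The code was tested on simulated data.

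The 8 genes and the 6 companion lists were chosen with earlier results of these data known. Named companion genes are up to 3 per list and direction with the smallest p among those called in a clone. The 3 most correlated genes and 10 neighbours on each side were taken for each of the 8 genes. Promoters came from RefSeq (GRCh38.p14), and motifs were searched on both strands.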

Additional observations from a re-analysis of the deposited data

Results flagged for a closer look

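LRRC8A drew a closer look because its change with resistance differed between the lines. The log2 fold change was -0.07 (SE 0.14) in the HPV+ clone and -1.18 (SE 0.15) in the HPV- clone, a difference of 1.11 (SE 0.21, edgeR adjusted p = 0.00547). Without each library in turn the difference ran from 0.99 to 1.24. LRRC8A was lower in 2 of 2 HPV- resistant libraries than in either HPV- parental library, and the HPV+ libraries overlapped.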

How the results depend on the processing

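The LRRC8A fall in the HPV- clone was called in all 16 alternatives, and the difference between lines in all 15. The number of the 8 genes called in the HPV- clone, 2 as reported, was 1 with the transcript length offset, with the replicate block, with only the 4 libraries compared and with the added fold rule, and 1 to 3 with a library left out. In the HPV+ clone, 1 as reported, it was 3 with DESeq2, 3 with a filter of 5 CPM in 2 libraries, 3 with only the 4 libraries compared, 2 with upper-quartile factors, 2 with no filter, 0 with the transcript length offset, and 0 to 3 with a library left out. For the difference between lines it was 1 to 2 with a library left out. Between parental lines, 6 as reported, it was 7 with the replicate block, with upper-quartile factors and with the 5 CPM filter, 5 with the length offset, 4 with the added fold rule, and 5 to 7 with a library left out. Between resistant clones it was 6 in every alternative except the added fold rule, with 5. The cause of these shifts was not tested. Whether libraries with the same number were prepared together is not stated. Deviations of same-numbered libraries correlated at -0.0739 to 0.142 over the pairs of groups, which cannot settle it. The replicate block moved the ATP7A adjusted p in the HPV- clone to 0.0658.

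Of 632 alternative values for the 8 genes, 577 kept direction and side of the threshold, 15 lost a call, 20 gained one and 20 turned direction, all of them from values not called. The turns listed here also include those of LRRC8C and LRRC8E, which are not among the 8 genes. With upper-quartile factors SLC31A1 was 0.020, LRRC8D 0.039 and LRRC8E 0.072 in the HPV- clone. With the same factors SLC31A2 was 0.043 in the HPV+ clone and the ATP7A difference was -0.032. SLC31A2 in the HPV+ clone was 0.021 with DESeq2, 0.022 with RLE factors and 0.019 with the 5 CPM filter, and LRRC8A there was 0.064 with the length offset. Without turning its direction, that offset moved LRRC8E from 0.04 to 0.72 in the HPV+ clone and from 0.05 to 0.73 for the difference, neither called. With a library left out, values turned direction within these ranges: in the HPV- clone SLC31A1 -0.21 to 0.016, LRRC8D -0.23 to 0.092, LRRC8C -0.028 to 0.46 and LRRC8E -0.19 to 0.14; in the HPV+ clone SLC31A2 -0.22 to 0.18, CCS -0.034 to 0.12, LRRC8A -0.17 to 0.011 and LRRC8E -0.16 to 0.22; for the difference ATP7A -0.24 to 0.28, ATOX1 -0.20 to 0.011 and LRRC8E -0.15 to 0.23; between resistant clones SLC31A2 -9.0e-05 to 0.40 and ATP7B -0.62 to 0.00014. With 2 libraries per group and ATP7B at 76 to 210 read pairs, small changes were not detectable at this depth.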
